A study of Homo sapiens with 9 samples.

Results

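ZC3H13 and 9 other genes of N6-methyladenosine (m6A), the methyl mark on adenosines inside messenger RNA, were followed across metastases and the primary tumour of a human Ewing sarcoma line grown in mice. The genes were taken by symbol from the deposited count table, and all 10 passed the filter on low counts that left 17042 of 34934 rows. ZC3H13 was selected on its level in the primary library, which stood above the metastases in an earlier look at these data. Values of that contrast are therefore given as a description with no test. Bone marrow against lung was not used to choose the genes and was tested.

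The cells were TC71, an Ewing sarcoma line with no treatment or genetic change named in the labels. In immunodeficient NSG mice, 100 cells mixed with Matrigel were placed beneath the flank skin, and tumour cells were recovered by flow sorting when tumours reached 1.5 cm in diameter. There were 4 libraries from bone marrow metastases, 4 from lung metastases and 1 from a primary tumour. The labels do not say which libraries share a mouse, so a p-value here reflects only how far these libraries vary, which may be technical in part, and the primary level has no replicate check. In such bulk libraries, fewer cells that express a gene and less of its RNA per cell cannot be told apart.

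m6A is placed in the nucleus by a multi-subunit writer. METTL3 is its catalytic subunit, METTL14 helps METTL3 to hold the RNA, WTAP anchors the pair in nuclear speckles, and ZC3H13, VIRMA, CBLL1, RBM15 and RBM15B are accessory subunits. ZC3H13 is a zinc finger protein that, in mouse embryonic stem cells, keeps the accessory subunits in the nucleus. FTO and ALKBH5 remove the mark as erasers, and readers such as YTHDF2 and YTHDC1 bind it and steer the decay, splicing or export of the transcript.

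Library totals ran from 11549404 to 17910246 estimated counts. Between 17234 and 19757 genes were detected, the fewest in lung replicate 3 and the most in bone marrow replicate 1. The summed level of 10 Ewing sarcoma markers was 1695 to 2230 CPM (counts scaled to a common library total with TMM factors, the unit used throughout) in bone marrow, 1728 to 2266 CPM in lung libraries and 2354 CPM in the primary library. Most of each sum was STEAP1, CD99 and EWSR1. LIPI ran from 0.0704 CPM in lung replicate 2 to 216 CPM in lung replicate 3. GLI1 of that list was at 0 in the primary library, in bone marrow replicates 2, 3 and 4 and in lung replicates 1 and 4. The sums of 9 leukocyte markers were 1.04 to 6.06 CPM in bone marrow, 2.73 to 35.5 CPM in lung libraries and 4.14 CPM in the primary library. The sums of 5 red cell markers were 15.3 to 98.7 CPM in bone marrow, 0.363 to 159 CPM in lung libraries and 6.13 CPM in the primary library. The sums of 6 lung epithelium markers, most of it EPCAM and NKX2-1, were 21.3 to 87.5 CPM in bone marrow, 14.8 to 129 CPM across lung and 39.3 CPM in the primary library. Of these, EPCAM was highest in lung replicate 2 at 115 CPM and SCGB1A1 was at 0 in all 9 libraries. The sums of 5 endothelial markers were nearly all CDH5. They were 23.6 to 27.9 CPM in bone marrow, 25.3 to 30.1 CPM across lung and 23.5 CPM in the primary library. All these counts are of human genes on the human genome build, so the sums do not directly measure cells of the mouse host.

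Among the members, ZC3H13 had the widest margin of the primary library over the highest metastasis library, and 8 of the 10 did not have their highest value there. ZC3H13 had 264, 165, 159 and 278 CPM in the bone marrow libraries, 213, 157, 189 and 160 CPM in the lung libraries and 682 CPM in the primary library. All 8 metastasis libraries fell in one band, with both sites overlapping, and the primary library stood apart above them. The primary level was 3.44 times the metastasis mean and 2.45 times the highest metastasis library. The log2 fold change was -1.65 for bone marrow minus primary and -1.92 for lung minus primary. Both use the same primary library, so they are not separate support.

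The primary value rested on 8884 estimated counts out of 12351975, or 0.0719% of the library (95% exact binomial interval 0.0704 to 0.0734%, which covers counting error only). Among 6126 genes whose average log2 CPM was 4 or more, ZC3H13 ranked 12 by the ratio of the primary library to the highest metastasis library. The interval and the rank both describe the value on which ZC3H13 was chosen, so neither is support for a high primary level. The gene lies on the minus strand at chr13:45954465-46052759 (hg38, GENCODE release 29), and no exon of another gene overlaps its exons on the opposite strand. MALAT1, a long RNA held in the nucleus, had 2441 to 4804 CPM in bone marrow, 3335 to 4393 CPM in lung libraries and 5422 CPM in the primary library, which was again the highest. The other 2 detected RNAs of the nuclear list did not have that order. NEAT1 had 45.8 to 130 CPM in the metastases and 47.1 CPM in the primary library, and MEG3 had 2.88 to 23.3 CPM in the metastases and 5.14 CPM in the primary library. The part of nuclear RNA in the ZC3H13 level was not tested.

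YTHDC1, the nuclear reader that takes part in splicing and export of marked RNA (chr4:68310387-68350089, minus strand), was the only other member whose primary library lay above all 8 metastases. It had 62.7, 32.9, 49.3 and 45.0 CPM in bone marrow libraries, 65.4, 43.3, 52.3 and 28.4 CPM in lung libraries and 84.1 CPM in the primary library. The margin over the highest metastasis library was 1.29 times, and YTHDC1 ranked 216 on the scale where ZC3H13 ranked 12.

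The primary library lay above all 8 metastases for 2 of 10 members and below all 8 for 0. The shares over all tested genes were 10.1% above and 7.56% below. With the further condition of a primary level at least 2-fold above the metastasis mean, 1 member was left, ZC3H13, and the share over all genes was 7.59%. Nothing is read from these counts, since the choice of ZC3H13 used this contrast. The filter on low counts could also admit a gene on the primary library alone, and such a gene lies above all 8 in advance. With at least 5 CPM required in at least 4 libraries, the share above all 8 over all genes was 10.3%.

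**Figure D1:**
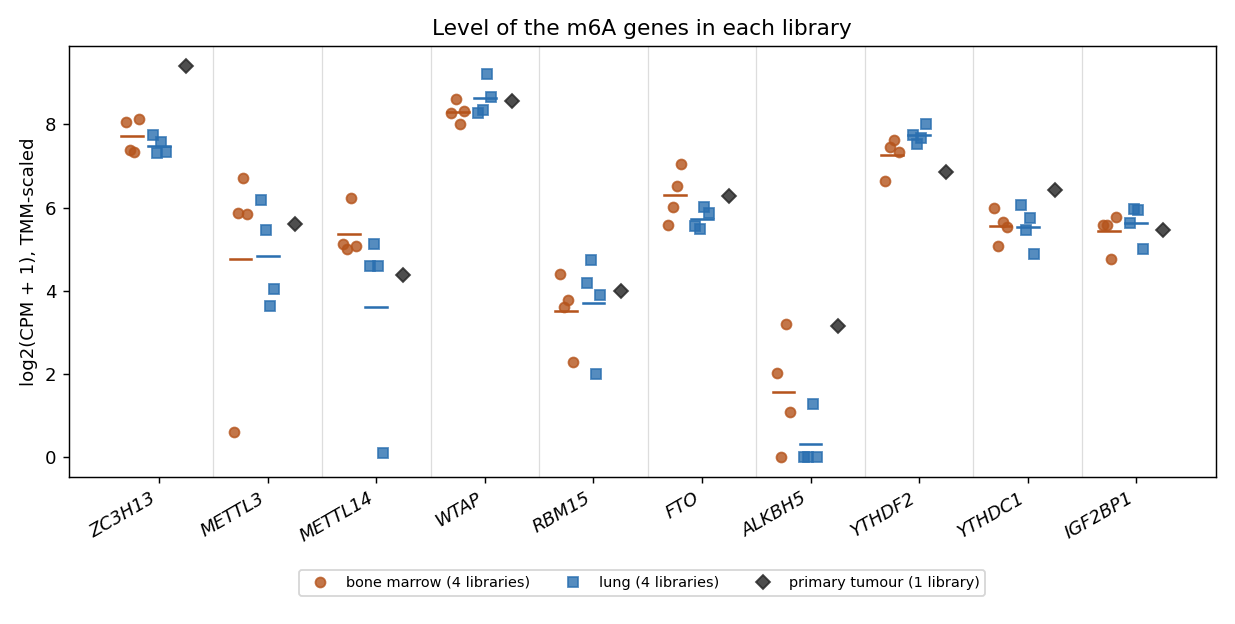
Level of the 10 genes in each library, as log2(CPM + 1) after TMM scaling. Circles are the 4 bone marrow libraries, squares the 4 lung libraries and diamonds the 1 primary library. Horizontal marks are means on the log2 scale. The ZC3H13 diamond, at 682 CPM, stands above all 8 metastasis points, while single METTL3 and METTL14 points drop to near 0.

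The catalytic pair did not follow ZC3H13 and varied widely within each site. METTL3 (chr14:21498133-21511375, minus strand) had 0.518, 57.5, 104 and 56.1 CPM in bone marrow libraries, 71.3, 43.2, 11.4 and 15.3 CPM in lung libraries and 47.3 CPM in the primary library. METTL14 (chr4:118685368-118715433, plus strand) had 34.0, 31.2, 73.8 and 32.8 CPM in bone marrow libraries, 23.1, 33.9, 23.2 and 0.0726 CPM in lung libraries and 19.6 CPM in the primary library. The primary values lay inside the metastasis range for both genes, where METTL3 ranked 5 of 9 libraries and METTL14 ranked 8.

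The lowest values of the pair fell in different libraries. Bone marrow replicate 1 had 6.88 estimated counts of METTL3 beside 460 of METTL14, and it was the library with the most genes detected. Lung replicate 4 had 0.839 estimated counts of METTL14 beside 211 of METTL3. The ratio of METTL14 to METTL3, each as CPM per kilobase of its longest coding transcript, was 0.164 to 19.9 in bone marrow, 0.00143 to 0.613 in lung and 0.126 in the primary library. Library preparation used a low-input template-switching kit, and whether molecules were lost before sequencing was not tested.

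WTAP, the anchor of the pair (chr6:159725585-159756319, plus strand), was at a like level in most libraries. Its CPM values were 311, 388, 257 and 316 in bone marrow, 310, 324, 588 and 406 in lung and 377 in the primary library. Lung replicate 3 was the highest, the sites overlapped, and the primary library ranked 4 of 9. RBM15, which binds RNA and brings the writer to its targets (chr1:110338506-110346681, plus strand), had 3.85 to 20.0 CPM in bone marrow, 2.98 to 25.8 CPM in lung libraries and 14.96 CPM in the primary library.

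Levels of different genes were compared per kilobase of the longest coding transcript. In the metastases WTAP was highest at 99.2 ± 28.1 CPM per kilobase (SD, n = 8), followed by YTHDF2 at 63.4 ± 15.4. ZC3H13 at 24.7 ± 6.09 and METTL3 at 22.3 ± 17.3 did not differ beyond their spread, and ALKBH5 was lowest at 0.625 ± 1.03. In the primary library ZC3H13 ranked 2 at 85.0 CPM per kilobase, behind WTAP at 103. The ratio of ZC3H13 to WTAP on this scale was 0.316 ± 0.0969 in bone marrow, 0.215 ± 0.0722 in lung (SD, n = 4 each) and 0.823 in the primary library. The highest ratio in a metastasis library was 0.401.

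The erasers differed in how far they were detected. FTO (chr16:53701692-54158512, plus strand), which demethylates m6A and the related cap mark m6Am, had 46.6, 63.4, 90.9 and 132 CPM in bone marrow libraries, 46.4, 44.1, 63.3 and 57.5 CPM in lung libraries and 77.1 CPM in the primary library. Bone marrow replicates 3 and 4 lay above the lung range, replicate 2 sat at its upper edge, replicate 1 lay within it, and the primary library ranked 3 of 9.

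ALKBH5 (chr17:18183078-18209954, plus strand), the m6A demethylase, was scarce. It had 3.03, 0, 8.20 and 1.11 CPM in bone marrow libraries, 0, 0, 1.41 and 0 CPM in lung libraries and 7.90 CPM in the primary library. The libraries at 0 allow up to 0.183 to 0.255 CPM, from 3 counts each. The primary library ranked 2 of 9, just under bone marrow replicate 3, and without that replicate it would be the highest, making 3 members above every metastasis library. On the opposite strand, exons of AC087164.1 overlap 11.2% of ALKBH5 exon bases, and no source used here gives the strand setting of the counting. Smaller antisense overlaps were those of TOX4 with METTL3 (6.58% of exon bases), SOD2 with WTAP (6.81%) and RBM15-AS1 with RBM15 (3.75%). WTAP, FTO and YTHDF2 each have a pseudogene of like name (WTAPP1, FTOP1 and YTHDF2P1), so reads of these members could have been split.

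The remaining readers among the members did not have a high primary level. YTHDF2 (chr1:28736621-28769775, plus strand), which recruits the CCR4-NOT deadenylase to marked RNA, had 98.4, 174, 196 and 161 CPM in bone marrow libraries, 212, 185, 204 and 255 CPM in lung libraries and 114 CPM in the primary library. Bone marrow replicate 1 was the only metastasis library under the primary level. IGF2BP1 (chr17:48997412-49055650, plus strand), an oncofetal reader that stabilises its targets, had 26.2 to 53.8 CPM in bone marrow, 31.1 to 61.0 CPM in lung libraries and 43.1 CPM in the primary library.

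The metastasis minus primary log2 fold changes of the other members were -0.83 for YTHDC1, -0.11 for METTL3, -0.07 for WTAP, -0.16 for RBM15, -0.22 for FTO and -2.91 for ALKBH5, and 0.58 for METTL14, 0.69 for YTHDF2 and 0.11 for IGF2BP1. For comparison, the value of ZC3H13 was -1.79 and the median of all tested genes was 0.17. The ALKBH5 value was -5.61 without lung replicate 3, the 1 lung library with counts of it, and -4.88 with limma voom. METTL14 turned to -0.28 with limma voom and FTO to 0.26 with the offset for length and GC described further on.

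Between the 2 metastatic sites no member was called. In edgeR's quasi-likelihood test with Benjamini-Hochberg adjustment over all tested genes, 0 of 10 members passed an adjusted p of 0.05, and 0.00587% of all genes did (1 of 17042). The spread between libraries of a group was wide, with a common biological coefficient of variation of 0.925. A gene that was not called is therefore not shown to be equal between the sites. None of the members had an unadjusted p below 0.05, and limma voom called 0. DESeq2 called 0 of 10 members and 3.38% of all genes with an adjusted p. In no member were the bone marrow libraries all above the lung libraries, which held for 2.82% of genes, or the lung libraries all above bone marrow, which held for 3.06%.

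ZC3H13 averaged 216 ± 62.9 CPM in the bone marrow libraries and 180 ± 26.4 CPM in those from lung (SD, n = 4 each). Its log2 fold change was 0.27 ± 0.25 (SE; edgeR adjusted p = 0.736), and -0.03 once GC content and transcript length were taken up by an offset, which moved the median of all genes to -0.22. Bone marrow replicates 1 and 4 were above every lung library and the other 2 lay within the lung range. FTO had the smallest adjusted p of the 10, at 0.520, with a log2 fold change of 0.66 ± 0.36 (SE), or 0.34 without bone marrow replicate 4. YTHDF2 followed at 0.535 with -0.44 ± 0.25 (SE), and ALKBH5 had 3.11 ± 1.97 (SE) with an adjusted p of 0.585. Without lung replicate 3 the lung libraries hold no ALKBH5 counts and the fitted value, 8.44, depends on the prior count. It was 1.95 without bone marrow replicate 3. The remaining members had log2 fold changes between -0.36 for WTAP and 1.10 for METTL14. In all, 6 of 10 had the higher value in bone marrow, among them ZC3H13 and YTHDC1 (0.00), whose signs turned under that offset. The median over the 10 was 0.14 on the log2 scale, beside 0 for all genes.

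**Figure D2:**
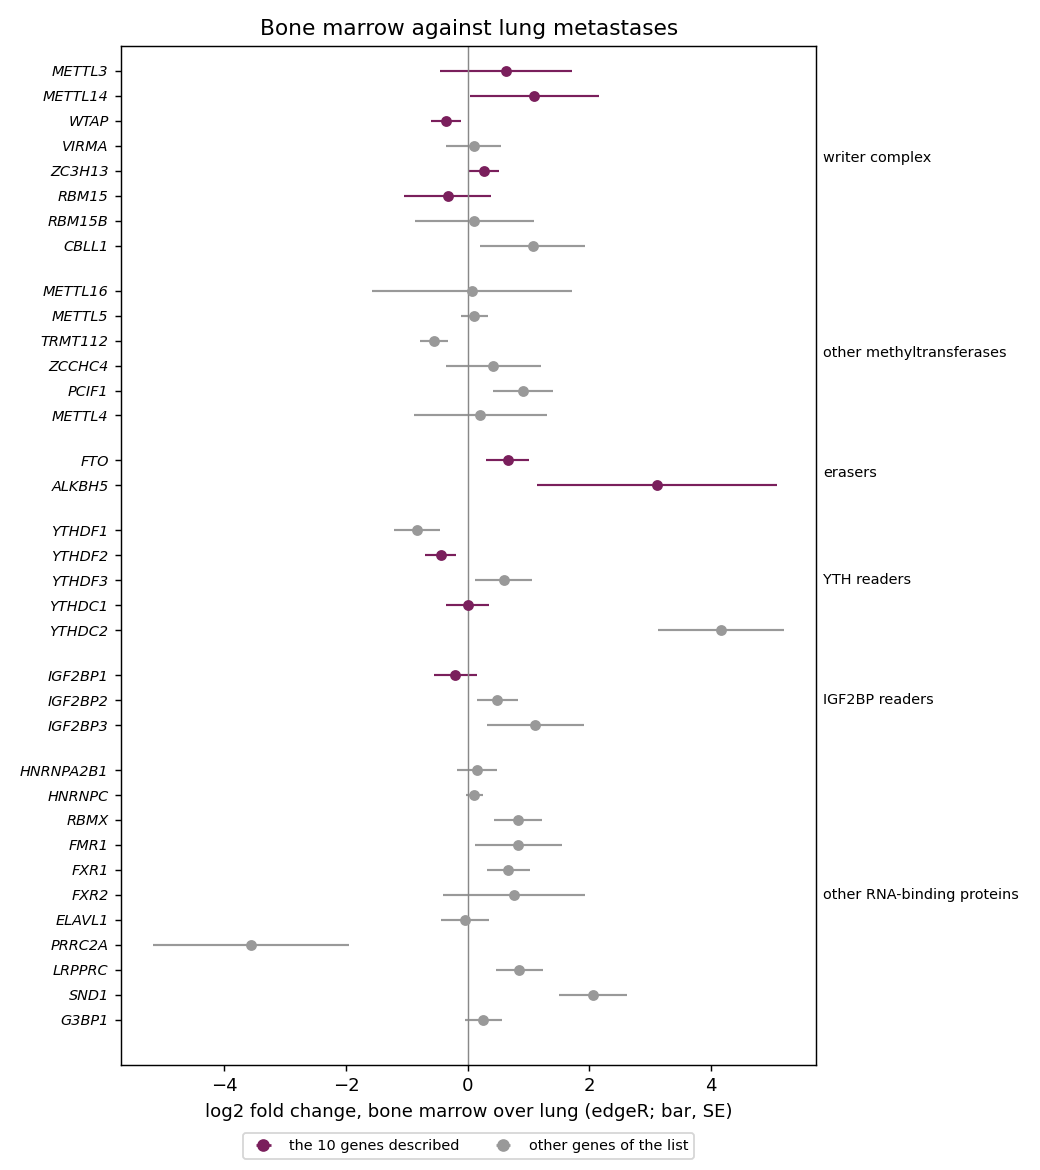
Log2 fold change of bone marrow over lung for 35 m6A-related genes from edgeR, with the SE as a bar (4 libraries per site). Dark points are the 10 genes described and grey points the others. No gene of the list passed the edgeR test. YTHDC2, at 4.17, lies farthest right and PRRC2A farthest left.

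The wider list of 35 m6A genes, which adds the other writer subunits, other methyltransferases, readers and RNA-binding proteins, was read in the same tests. None of the 35 passed edgeR, and limma voom called 0. For 3 of the 35 the unadjusted p was below 0.05, beside 10.2% of all genes (1739 of 17042), and DESeq2 called 2, beside 3.38%. The median log2 fold change was 0.27, and 27 of the 35 had the higher value in bone marrow, beside 49.9% of all genes. Lung replicate 3 had the largest share of tested genes at 0, 14.9%. The offset for length and GC moved the median of all genes to -0.22, and the direction count under it is not given. The cause of the direction count was not tested. The 2 DESeq2 calls were YTHDC2, a reader with an RNA helicase domain, and SND1, an RNA-binding nuclease. YTHDC2 had 3.03, 19.2, 10.5 and 4.50 CPM in the bone marrow libraries and 0.679, 1.13, 0.0828 and 0.145 CPM in the lung libraries. The sites did not overlap (log2 fold change 4.17 ± 1.04 SE, edgeR adjusted p = 0.342, DESeq2 adjusted p = 0.00110). Lung replicates 3 and 4 lay under the limit of 3 counts, 0.248 and 0.218 CPM there, so the size of the YTHDC2 fold change is uncertain. SND1 averaged 47.6 ± 11.8 CPM in the bone marrow libraries and 11.4 ± 8.16 CPM in those from lung (SD, n = 4 each), again without overlap (edgeR adjusted p = 0.355, DESeq2 adjusted p = 0.00910).

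For the primary library, 9 of the 35 genes (25.7%) lay above all 8 metastases and 1 below, beside 10.1% and 7.56% of all genes. The median log2 fold change of metastases minus primary was -0.16. The writer complex held 2 of its 8 genes in that count, ZC3H13 and CBLL1. Nothing is read from these counts, since the list holds ZC3H13, chosen on this contrast, and was drawn up with earlier results known. CBLL1, a ubiquitin-ligase-like writer subunit also known as HAKAI, had 31.6, 57.4, 31.6 and 43.1 CPM in bone marrow libraries, 14.8, 50.9, 1.08 and 11.3 CPM in lung libraries and 75.6 CPM in the primary library. VIRMA, the large scaffold subunit, was at 53.9 ± 31.7 CPM in bone marrow, 50.4 ± 8.85 CPM in lung (SD, n = 4 each) and 37.7 CPM in the primary library.

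The others of the 9 were YTHDC1 and YTHDF1 among the YTH readers, IGF2BP2 among the IGF2BP readers, and the RNA-binding proteins HNRNPA2B1, FMR1, HNRNPC and FXR2. HNRNPC and FXR2 are named because their values were seen, as is METTL5, which methylates ribosomal RNA and was the gene below all 8, at 158 to 277 CPM in the metastases and 149 CPM in the primary library. Past a 2-fold margin over the metastasis mean were 3 of the 35, beside 7.59% of all genes. No eraser was above or below all 8.

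**Figure D3:**
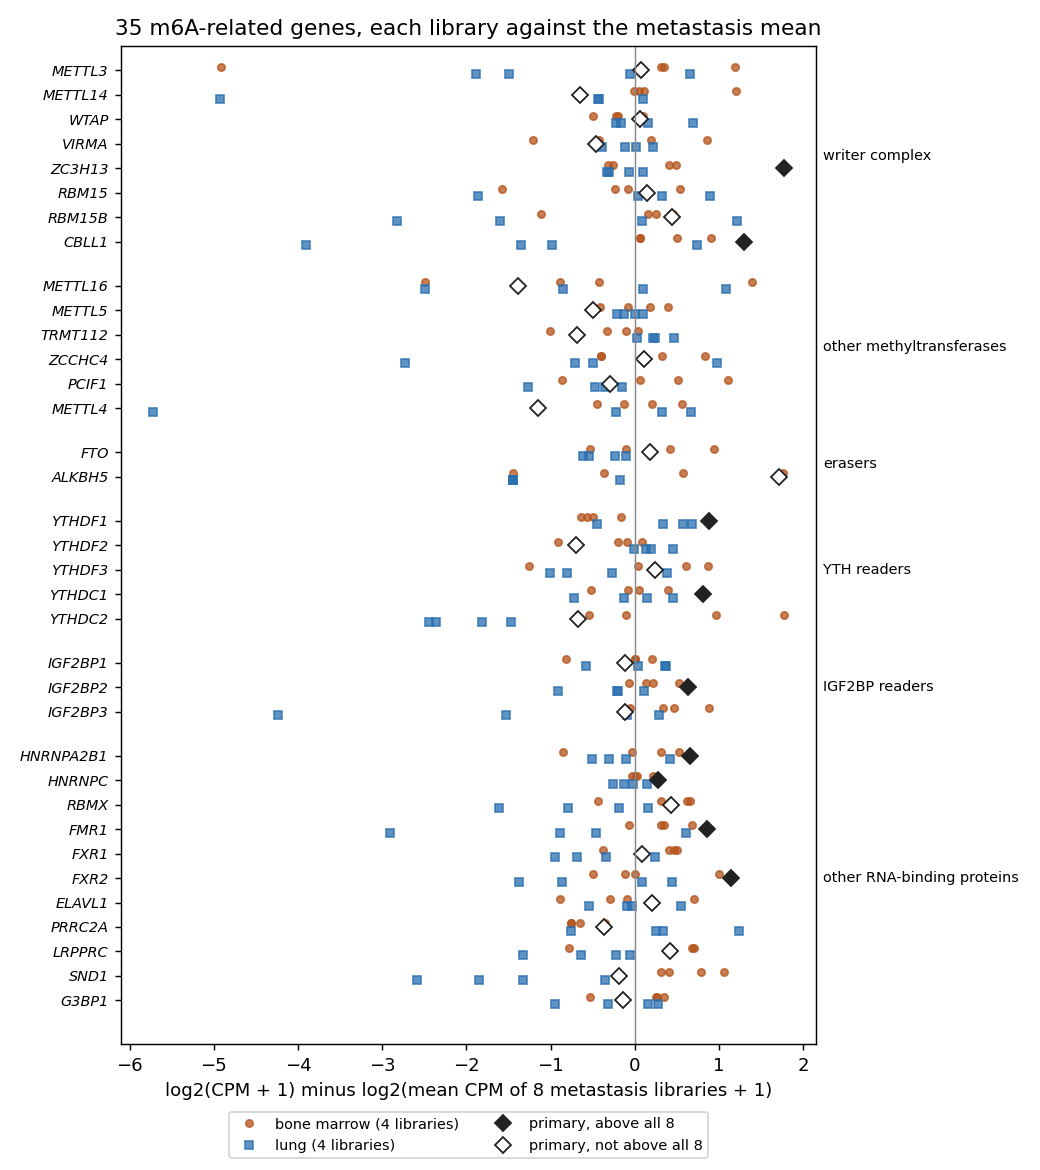
Each library's log2(CPM + 1) minus log2(mean CPM of the 8 metastasis libraries + 1), for 35 m6A-related genes in groups by role. Circles are bone marrow, squares lung and diamonds the 1 primary library, filled where it lies above all 8 metastases, as for 9 genes. ZC3H13 is farthest right among the filled diamonds.

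Genes high in the primary library had longer and less GC-rich transcripts at the median. Among the 1718 genes above all 8 metastases, 1547 had an annotated transcript. Their medians were 4235 bases of transcript length and 45.5% GC content, against 3274 bases and 47.7% for the 14968 annotated tested genes. ZC3H13 has 8018 bases and 41.6% GC, and YTHDC1 has 6232 bases and 40.3%. An offset fitted in each library to transcript length and GC, chosen after seeing the data, put ZC3H13 at 1.98 times the highest metastasis library and its metastasis minus primary log2 fold change at -1.27. The same offset put YTHDC1 at 0.865 times the highest metastasis library, so it no longer lay above all 8. The member count stayed at 2 under the offset, but only ZC3H13 was in both counts, because ALKBH5 joined it at 1.14 times.

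Of the 9 genes of the wider list, 3 still lay above all 8 under the offset, ZC3H13, CBLL1 and FXR2, and with ALKBH5 the list count was 4. Over all genes the share was 7.99%. The offset moved the median of all genes to 0.32 for metastases minus primary, against 0.17 without it.

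**Figure D4:**
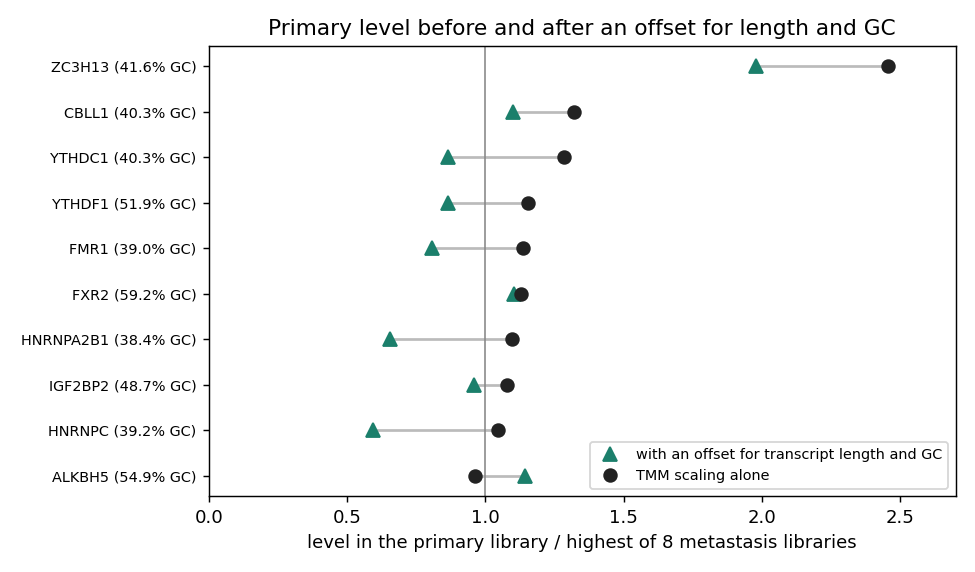
Level in the primary library over the highest of the 8 metastasis libraries, with TMM scaling alone (circles) and with a further offset for transcript length and GC (triangles), for the 9 m6A-list genes above 1 with TMM alone and ALKBH5. The vertical line is at 1. ZC3H13 stays near 2, while YTHDC1, YTHDF1, IGF2BP2, HNRNPA2B1, HNRNPC and FMR1 cross below the line.

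The genes around ZC3H13 on chromosome 13 were not all high in the primary library. Of the 5 nearest tested genes on each side, 2 of 10 lay above all 8 metastases and 0 below, beside 10.1% and 7.56% of all genes. COG3, a subunit of a Golgi tethering complex, was at 8.28 to 16.5 CPM in bone marrow, 0.0848 to 3.63 CPM in lung libraries and 24.0 CPM in the primary library. SLC25A30-AS1 was listed at 0 in all 8 metastasis libraries and had 1.61 CPM in the primary library. It passed the filter on low counts through the primary library alone, so its place above all 8 was fixed in advance. TPT1, which encodes the translationally controlled tumour protein, was at 737 to 2095 CPM in bone marrow, 970 to 1618 CPM in lung libraries and 1158 CPM in the primary library. Over the chromosome, 37 of 300 tested genes (12.3%) lay above all 8, near the 10.1% over all genes.

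**Figure D5:**
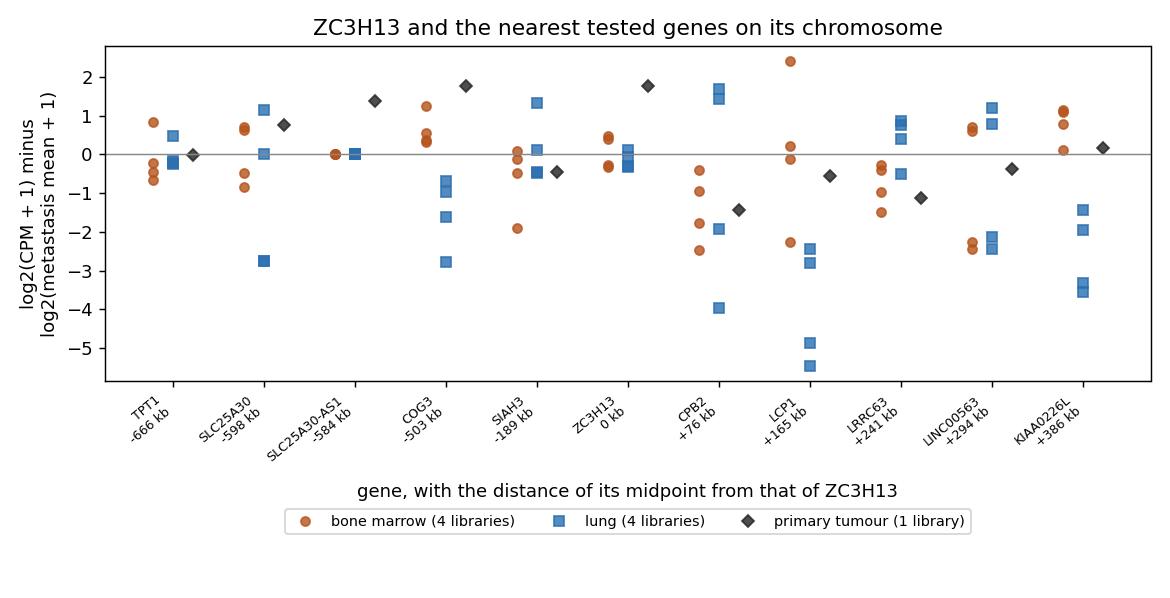
ZC3H13 and the 5 nearest tested genes on each side, as log2(CPM + 1) minus log2(metastasis mean + 1). Gene names carry the distance of the gene midpoint from that of ZC3H13 in kilobases. Circles are bone marrow, squares lung and diamonds the 1 primary library. Diamonds lie above all other points of a gene for ZC3H13, COG3 and SLC25A30-AS1.

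The genes whose pattern was most like ZC3H13 were found by the Pearson correlation of log2(CPM + 1), as a description with no test, among 6057 genes above the same minimum average level, with rows named as clones left out. Over the 8 metastasis libraries they were RSF1 (r = 0.874), LRIG2 (0.847), HMGN5 (0.844), EHBP1 (0.826) and ACADSB (0.822). Over all 9 libraries they were HMGN5 (0.939), CLMN (0.935), PRRC2C (0.934), PTPRS (0.901) and JAKMIP2 (0.893), where the single primary library weighs heavily. HMGN5 was in both lists, and had 23.3 ± 12.7 CPM in bone marrow, 18.4 ± 2.39 CPM in lung (SD, n = 4 each) and 74.3 CPM in the primary library. Within the wider m6A list YTHDC1 was closest over the 8 metastasis libraries (r = 0.557), and YTHDF2 lay at -0.65.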

How the data were processed

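The authors deposited estimated counts per gene symbol, unscaled. Per the submitters' processing notes, reads were handled with Trim Galore and Salmon on build hg38. A second deposited table gives the percent of reads per species, the fraction per counting category, and a read length (151 bases). How those values were made, and the strand setting, are not given in the sources used here. Human reads made up 72.7 to 79.1% and mouse reads 7.0 to 8.09%. All sample columns were used.

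Estimated counts were rounded. The 12 vector rows and 92 ERCC rows, at most 0.0159% of a library, were left out. One edgeR 4.0.16 quasi-likelihood model (R 4.3.3, TMM, filterByExpr) held all 9 libraries in 3 groups, and was tested on simulated data. Calls used a Benjamini-Hochberg adjusted p below 0.05. DESeq2 1.42.0, limma 3.58.1 voom, other scalings and filters, left-out libraries and a length and GC offset (GENCODE 29) were alternatives. Log2 fold changes are bone marrow minus lung or metastases minus primary.

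The members and lists were chosen with earlier results of these data known. Named genes were the members, per list and contrast the 3 largest changes in each direction at an average log2 CPM of at least 2, the 5 most like ZC3H13 in each set of libraries, and the 5 nearest neighbours on each side. All 36 pairs of libraries differed by more than sampling noise (lowest chi-square over its degrees of freedom, 79.9).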

Additional observations from a re-analysis of the deposited data

Results flagged for a closer look

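Of 20 groups of 4 libraries tested (10 genes at 2 sites), 2 held a library far from its others, and chance flags about 1 group in 20. METTL14 was at 73.8 CPM in bone marrow replicate 3, where the other 3 bone marrow libraries lay between 31.2 and 34.0 CPM. ALKBH5 was at 1.41 CPM in lung replicate 3, where the other 3 lung libraries were at 0. With 3 values tied at 0, any detection in the remaining library meets the criterion, so this case says only that ALKBH5 was detected in 1 lung library and is not to be set against chance. The METTL3 value of 0.518 CPM in bone marrow replicate 1 and the METTL14 value of 0.0726 CPM in lung replicate 4 did not pass this criterion.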

How the results depend on the processing

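For bone marrow against lung, 1 gene was called in the model given in the report. It was 3 with a filter of 5 CPM in 4 libraries, 468 with DESeq2, 6 with limma voom, 0 with each library left out in turn, and 0 without bone marrow replicate 1 and lung replicate 3 together. With the replicate number as a replicate block it was 0. Same-numbered bone marrow and lung libraries correlated at -0.056 to 0.037 in their deviations. Such values cannot tell whether same-numbered libraries share a mouse. DESeq2 called 2 genes of the wider m6A list. No member was called under any alternative run, and the lowest adjusted p of FTO over these was 0.404.

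Genes with the primary library above all 8 metastases numbered 922 under the 5 CPM filter, where fewer genes were tested, and 1882 to 2134 with a library left out. Members above all 8 numbered 1 with a 2-fold margin and 2 to 3 with a library left out. ALKBH5 had no value under the 5 CPM filter.

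The sign of small bone marrow minus lung values changed. RBM15 ranged from -0.68 to 0.08 with a library left out. YTHDC1 was 0.00 with median-ratio factors and with DESeq2, -0.07 with library size alone, -0.06 with the 5 CPM filter, -0.01 with the 8 metastasis libraries alone, -0.36 with the offset, -0.11 without bone marrow replicate 1 and lung replicate 3, and -0.18 to 0.22 with a library left out. ZC3H13 was -0.03 with the offset. METTL3 ranged from 0.11 to 1.24 and METTL14 from 0.68 to 1.47 with a library left out, without a change of sign. For metastases minus primary, signs also turned over the alternatives, with ranges of -0.38 to 0.26 for FTO, -0.28 to 1.05 for METTL14, -0.56 to 0.24 for METTL3, -0.47 to 0.06 for RBM15 and -0.23 to 0.24 for WTAP. The positive values of FTO, RBM15 and WTAP came with the offset. The cause was not tested. ALKBH5, at 0 in 4 libraries, and METTL14 in lung replicate 4 were at or under the limit of 3 counts.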

Other observations

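Further gene groups around m6A were read by the same counts. Of 21 tested partners of the readers in decay, splicing and export, edgeR called 0 between bone marrow and lung, 4 had an unadjusted p below 0.05 (10.2% of all genes did), and DESeq2 called 1 of 19 (3.38% of all genes). That gene, NXF1, the main export receptor of messenger RNA, had 28.96 ± 7.85 CPM in the bone marrow libraries and 3.79 ± 3.36 CPM in those from lung (SD, n = 4 each; edgeR adjusted p = 0.354, DESeq2 adjusted p = 0.00321). The primary library lay above all 8 metastases for 2 of the 21 (9.52%), near the 10.1% over all genes. CNOT6L, a deadenylase of the CCR4-NOT complex, was one of them, at 21.1 to 48.9 CPM in metastases and 55.2 CPM in the primary library.

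Of 24 other RNA base modification enzymes and adaptors, edgeR called 0, 6 had an unadjusted p below 0.05 and DESeq2 called 1, beside the same 10.2% and 3.38% of all genes. That gene, ALYREF, an export adaptor that reads m5C, had 16.3 ± 4.46 CPM in the bone marrow libraries and 48.1 ± 10.4 CPM in those from lung (SD, n = 4 each; edgeR adjusted p = 0.329, DESeq2 adjusted p = 0.000887). NSUN2, an m5C methyltransferase of transfer and messenger RNA, was the 1 gene of the 24 (4.17%) with the primary library above all 8 metastases, beside 10.1% of all genes. NSUN5, an m5C methyltransferase of ribosomal RNA, was at 27.6 ± 2.57 CPM in bone marrow, 29.1 ± 12.97 CPM in lung (SD, n = 4 each) and 2.92 CPM in the primary library. Of 11 tested genes that supply or recycle S-adenosylmethionine, the methyl donor of m6A, edgeR and DESeq2 called 0 and 0 had an unadjusted p below 0.05. AMD1, which turns the donor towards polyamine synthesis, was the 1 gene of these 11 (9.09%) above all 8, at 34.6 to 178 CPM in the metastases and 207 CPM in the primary library.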
